A study of Gallus gallus with 16 samples.

Results

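A set of 10 genes of lipoprotein handling were followed in the liver of young broiler chickens: the apolipoprotein genes APOA1, APOA4, APOA5, APOB and APOH, the assembly gene MTTP, the plasma lipase and transfer genes LIPC and CETP, the receptor gene SCARB1 and the regulator TRIB1. They were taken by exact gene symbol on the array, and all 10 of 10 were found among 11528 named genes. APOA1 had 3 features and APOA4 had 2, so that 13 of the 20804 features carried these symbols. The feature with the highest mean over the arrays stood for each gene. The 16 birds were males of Gallus gallus sampled at day 21, with 1 array per liver and 4 birds per diet, the diets being lettered A, E, F and H. By the series title the feed additives under study were essential oils of several herbs and saponins, the latter being plant glycosides that foam like soap. The labels do not say which letter holds which additive or none, so diet A is a reference only as the first letter. No strain, genotype or further treatment was given that would set the groups apart or be shared by them.

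Lipoproteins carry fats through blood in particles wrapped in phospholipid and apolipoproteins. The chicken makes most of its fatty acids in the liver and exports them as very low density lipoprotein, built on a single APOB chain that MTTP loads with lipid. APOA1 is the main protein of high density lipoprotein, from which SCARB1 takes up cholesteryl ester, while CETP and LIPC reshape particles in the circulation. No probe or promoter sequence was used here, so the genes are given by name and feature only.

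All values are log2 signals, on which a difference of 1 is a 2-fold difference. Values ran from 0.93 to 14.63 and array medians from 6.11 to 6.21. No member lay under the 20th percentile of all values (4.31) in any bird, so none was lost to low signal. Of 12 hepatocyte markers 10 were measured, and their summed signal of 16.37 to 16.68 in log2 units marked every sample as liver. Replicates 3 and 4 of diet H stood apart, with a mean correlation with the other arrays of 0.948 and 0.946 against at least 0.966 elsewhere. Their hepatocyte sums were 16.37 and 16.49, against 16.57 to 16.68 in diet A, 16.52 to 16.67 in E and 16.52 to 16.63 in F. Single hepatocyte markers went both ways. F2 read 12.01 and 12.05 against 12.61 to 12.77 in diet A, and HPX 12.37 and 12.71 against 11.19 to 12.30. Diet H differences that these 2 livers carry are given with and without them. In whole liver, fewer cells of a type and less RNA per cell cannot be told apart.

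No member passed the threshold in any comparison of diets. limma called 0 of 20804 features (0%) at an adjusted p under 0.05 in each of the 6 pairwise comparisons and in the F test over the 4 diets, and 0 of the 10 members among them. TRIB1, a pseudokinase that lowers hepatic lipoprotein output in mice, had the smallest p of the members in the F test and the largest share of its variance between diets, and read highest in diet H and lowest in diet A. Differences were larger in size in APOA4, at 1.19 in H minus A, and CETP, at -0.80 in E minus F. APOA4 read higher in diets E, F and H than in diet A on average, with wide scatter between birds. CETP read low in 3 of 4 livers of diet E. APOB, MTTP and LIPC read low in diet H, and this lay in the 2 livers that stood apart. The median standard error of a difference was 0.22 over all features, and from 0.11 for APOH to 0.59 for LIPC among the members.

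**Figure D1:**
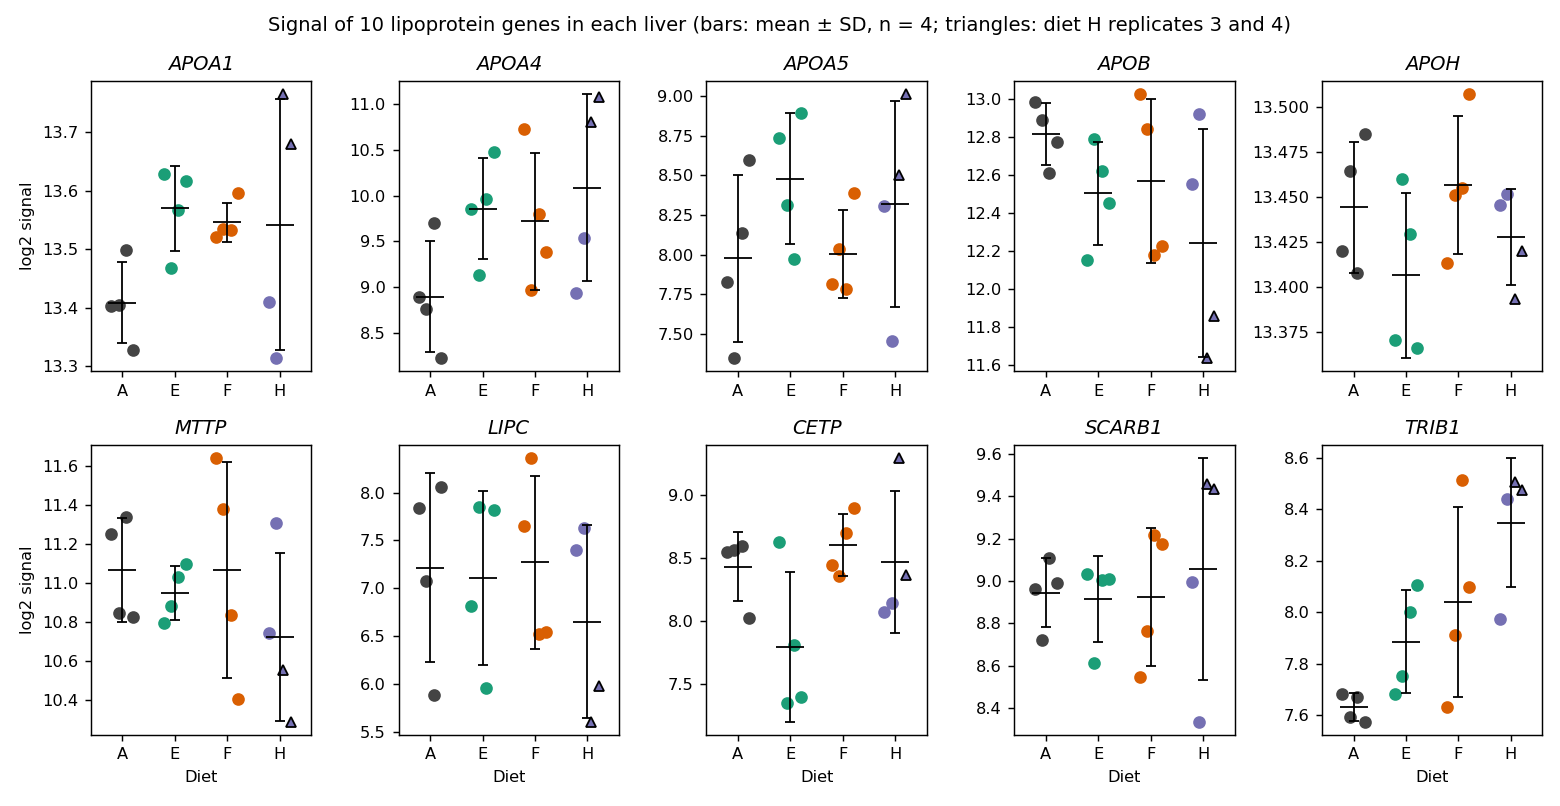
The log2 signal of each of the 10 genes (vertical axis, a separate scale per panel) is plotted for every liver by diet (horizontal axis), with bars for the mean and SD of 4 birds and triangles for diet H replicates 3 and 4. TRIB1 in diet H (7.97 to 8.51) lies above all diet A livers (7.58 to 7.68), and CETP in diet E holds 3 low livers and 1 at 8.63.

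APOA5, APOA4 and APOA1 are neighbours on chicken chromosome 24 in the RefSeq table of assembly GRCg7b, in this order, with APOC3 listed next to APOA4. APOA4, a lipid-binding apolipoprotein of liver and gut, read 8.90, 8.76, 9.70 and 8.23 in diet A replicates 1 to 4. The diet E livers read 9.85, 9.13, 9.96 and 10.47, and those of diet F 10.73, 8.97, 9.80 and 9.39. Diet H gave 8.93, 9.53, 10.81 and 11.08. Each diet overlapped with diet A, although all 12 livers outside diet A read above the diet A mean of 8.89 ± 0.61 (SD, n = 4). Diet H replicate 1, at 8.93, and diet F replicate 2, at 8.97, did so narrowly and lay below diet A replicate 3, at 9.70. The share of all features with such a count was not taken. The means of the other diets were 9.86 ± 0.55 in E, 9.72 ± 0.75 in F and 10.09 ± 1.02 in H, and the gap between F and A, 0.83, was the only step in this order above the pooled SD within diets of 0.76.

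The APOA4 differences from diet A were 0.96 ± 0.47 (SE) in E (adjusted p = 0.9997), 0.83 ± 0.47 in F (adjusted p = 0.993) and 1.19 ± 0.47 or 2.29-fold in H (adjusted p = 0.521). Without the 2 livers that stood apart the difference of diet H was 0.34 ± 0.47, while those of E and F, which do not use these livers, had the same size with a standard error of 0.38. These 3 comparisons share the diet A livers. Single omissions moved that of E between 0.74, without diet A replicate 4, and 1.23, without diet A replicate 3. That of F ran from 0.49, without diet F replicate 1, to 1.09, without diet A replicate 3, and that of H from 0.86, without H replicate 4, to 1.58, without H replicate 1.

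The second APOA4 feature gave smaller differences. Feature 15476324, with a mean of 9.64, stood for the gene, and for feature 15475159, with a mean of 7.93, the differences from diet A were 0.23 in E, 0.21 in F and 0.48 in H, with a standard error of 0.28. Without the 2 livers that stood apart that of H was -0.16. Over all 16 livers its Pearson r with the first feature was 0.77 and Spearman's rho 0.75, and over the other 14 r was 0.57. Both features read diet H replicates 3 and 4 above every other liver. Why the features differ in E and F was not tested.

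Intestinal markers are given beside APOA4 because gut epithelium makes this apolipoprotein. Of 12 markers 9 were measured, and FABP2, SI, MEP1A, SLC15A1 and MUC2 averaged under the 20th percentile. In H minus A 7 of the 9 read higher and 2 lower, with a median difference of 0.11, and -0.06 without the 2 livers that stood apart. FABP2, the fatty acid binding protein of enterocytes, averaged 2.82 in diet A, 2.58 in E, 2.64 in F and 2.81 in H. CDX2, a transcription factor of gut epithelium, read 3.96 to 4.32 in diet A, 4.21 and 4.12 in H replicates 1 and 2, and 5.39 and 4.87 in those that stood apart. CDX2 thus lay near or under the 20th percentile (4.31) in diet A and in H replicates 1 and 2. Its relative CDX1 averaged 5.99 in A and 6.27 in H, and SI, the sucrase of the brush border, 3.135 and 3.37. The summed signal of the list ran from 10.53 to 10.77 in diet A, 10.61 to 11.13 in E, 10.46 to 11.26 in F and 10.38 to 11.34 in H, and was carried by ANPEP, an aminopeptidase that liver also makes. In diet H replicates 3 and 4 it was 11.21 and 11.34. The part of intestinal RNA in the APOA4 difference was not tested.

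APOA1 moved little on its brightest feature. Diet A livers read 13.40, 13.40, 13.50 and 13.33, diet E livers 13.63, 13.47, 13.57 and 13.62, diet F livers 13.52, 13.53, 13.53 and 13.60 and diet H livers 13.41, 13.31, 13.77 and 13.68. All diet F livers lay above all diet A livers, by a margin of hundredths, and the other diets overlapped with A. The differences from A were 0.16 ± 0.13 in E (adjusted p = 0.9997), 0.14 ± 0.13 in F (adjusted p = 0.993) and 0.13 ± 0.13 in H (adjusted p = 0.615), and without the 2 livers that stood apart that of H was -0.05.

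This feature lies near the top of the scale. Only 60 features (0.288%) averaged above 13, and their median SD over the 16 livers was 0.07 against 0.31 for all features. The other 2 APOA1 features, at means of 10.84 and 11.42, spanned 10.16 to 11.98 and 10.60 to 12.17, against 13.31 to 13.77 for the brightest. Their differences in diet H were 0.47 ± 0.35 and 0.47 ± 0.25, with -0.31 and -0.02 once the 2 livers were left out. In the same order they were 0.03 and 0.22 in E, and 0.18 and 0.33 in F. On the feature with a mean of 10.84 diets F and A overlapped, with F replicate 1 at -0.42 and A replicate 3 at 0.05 from that mean. On the feature with a mean of 11.42 all F livers lay above all A livers, by a narrow margin. Whether bright features compress differences was not tested. All 3 features put diet H replicates 3 and 4 above the other 14 livers.

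**Figure D2:**
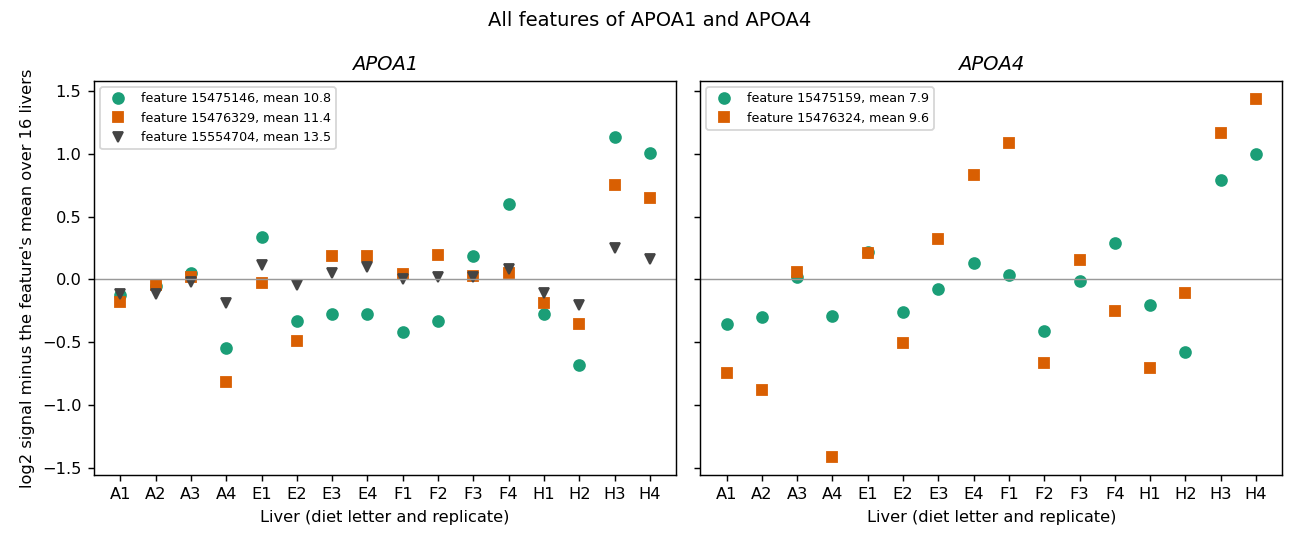
The log2 signal of the 3 APOA1 features (left) and the 2 APOA4 features (right) minus each feature's own mean over 16 livers (vertical axis) is plotted for every liver, named by diet letter and replicate (horizontal axis). Diet H replicates 3 and 4 are highest in all 5 features, and the APOA1 feature with a mean of 13.5 spans the narrowest range.

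APOA5, which promotes the breakdown of triglyceride-rich particles in mammals, averaged 7.98 ± 0.52 in diet A, 8.48 ± 0.41 in E, 8.01 ± 0.28 in F and 8.32 ± 0.65 in H (SD, n = 4). Single livers spanned 7.35 in diet A replicate 2 to 9.01 in diet H replicate 4. The largest step in the order E, H, F, A was 0.31, under the pooled SD of 0.48, and all diets overlapped. Differences from diet A were 0.50 ± 0.31 in E (adjusted p = 0.9997), 0.03 ± 0.31 in F (adjusted p = 0.998) and 0.34 ± 0.31 in H (adjusted p = 0.605). The sign of the last turned to -0.10 without the 2 livers that stood apart.

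APOB, the structural chain of very low density lipoprotein, was lowest in the livers where APOA1 was highest. Diet A livers read 12.98, 12.89, 12.61 and 12.77, diet E livers 12.15, 12.79, 12.62 and 12.45, diet F livers 13.02, 12.84, 12.18 and 12.23 and diet H livers 12.55, 12.92, 11.64 and 11.86. The 2 lowest values of all 16 were diet H replicates 3 and 4, and diet H replicate 2 was among the 3 highest. The groups overlapped in all comparisons, and in the order A, F, E, H no step exceeded the pooled SD of 0.40.

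Differences of APOB from diet A were -0.31 ± 0.27 in E (adjusted p = 0.9997), -0.25 ± 0.27 in F (adjusted p = 0.993) and -0.57 ± 0.27 in H (1.49-fold lower, adjusted p = 0.521). Without those 2 livers the last was -0.08 ± 0.25. MTTP, the microsomal transfer protein that lipidates APOB, averaged 11.07 ± 0.27 in A, 10.95 ± 0.14 in E, 11.07 ± 0.55 in F and 10.73 ± 0.43 in H. Its widest contrast, H minus F, was -0.34 ± 0.25 (adjusted p = 0.971), and -0.04 without the 2 livers. Diet F held both the highest MTTP value of the series, 11.64, and one of the lowest, 10.41.

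APOH, the phospholipid-binding plasma protein also called beta-2-glycoprotein I, was the most even member. Its 16 values spanned 13.37 to 13.51, an SD of 0.04 that ranked at the 0.0577th percentile of all features. Means ran from 13.41 in E to 13.46 in F, and their difference of -0.05 ± 0.11 for E minus F (adjusted p = 0.99998) was its largest contrast. The 95% interval in limma was -0.27 to 0.17. This interval draws on the variance of all features and is not the scatter of APOH between birds, whose pooled SD within diets was 0.038. APOH is also among the features near the top of the scale.

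**Figure D3:**
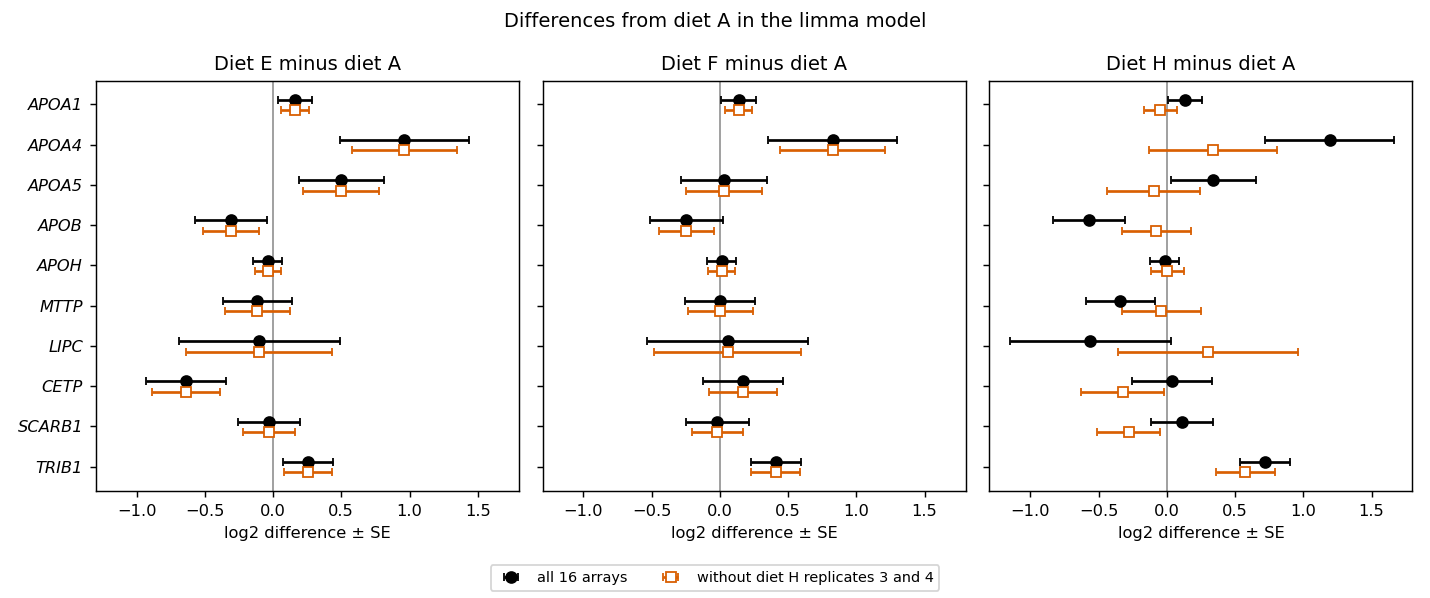
The log2 difference from diet A with its standard error (horizontal axis) is plotted for each gene (vertical axis) in diets E, F and H, with filled circles for all 16 arrays and open squares without diet H replicates 3 and 4. In diet H the APOB difference shrinks from -0.57 to -0.08 and that of APOA4 from 1.19 to 0.34, while TRIB1 is 0.72 with all arrays and 0.58 without the 2.

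LIPC, the hepatic lipase that trims lipoprotein remnants and high density lipoprotein, varied widely within every diet. Diet A livers read 7.84, 7.07, 5.88 and 8.06, diet E livers 6.82, 7.85, 5.96 and 7.82, diet F livers 7.66, 8.36, 6.52 and 6.54 and diet H livers 7.40, 7.63, 5.61 and 5.98. Its SD of 0.89 over all livers lay at the 98.8th percentile of features, and diets accounted for 7.98% of its variance. H minus F was -0.62 ± 0.59 (adjusted p = 0.971) and 0.24 ± 0.66 without the 2 livers, with an interval of -1.87 to 0.63 over all birds.

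CETP, which exchanges cholesteryl ester and triglyceride between particles, read lowest in diet E. The diet E livers gave 8.63, 7.35, 7.81 and 7.40, so replicate 1 stood with the other diets and the other three below all diet A livers. Diet A read 8.55, 8.57, 8.60 and 8.02, diet F 8.45, 8.36, 8.70 and 8.90 and diet H 8.07, 8.15, 9.30 and 8.37. The order of means was F at 8.60 ± 0.25, H at 8.47 ± 0.56, A at 8.43 ± 0.28 and E at 7.80 ± 0.59. Only the step from A to E, 0.64, exceeded the pooled SD of 0.45.

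In limma E minus F was -0.80 ± 0.29 for CETP, 1.75-fold lower (adjusted p = 0.99998), and this gene ranked 66 of 20804 by p in that comparison. E minus A was -0.64 ± 0.29 (adjusted p = 0.9997) and H minus E 0.67 ± 0.29 (adjusted p = 0.942), the last 0.31 without the 2 livers that stood apart. Leaving out single birds moved E minus F between -1.08, without diet E replicate 1, and -0.66, without diet E replicate 2. It was -0.41 among birds with title numbers up to 25 and -1.20 among those above.

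SCARB1, the receptor that takes cholesteryl ester from high density lipoprotein, had nearly equal diet means of 8.94 ± 0.16 in A, 8.92 ± 0.20 in E, 8.93 ± 0.33 in F and 9.06 ± 0.53 in H. Diets accounted for 3.65% of its variance, against a median of 16.5% over all features. H minus E, its widest contrast, was 0.14 ± 0.23 (adjusted p = 0.945) with an interval of -0.34 to 0.63, and -0.25 ± 0.23 without the 2 livers that stood apart. Diet H held the lowest liver, replicate 2 at 8.34, and the 2 highest, replicates 3 and 4 at 9.46 and 9.43.

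TRIB1 encodes a pseudokinase that presents targets such as C/EBP factors to a ubiquitin ligase, and in humans variants near it go with plasma lipids. Diet A livers read 7.68, 7.59, 7.67 and 7.58, diet E livers 7.68, 7.75, 8.003 and 8.11, diet F livers 7.63, 7.91, 8.51 and 8.10 and diet H livers 7.97, 8.44, 8.51 and 8.47. All diet H livers lay above all diet A livers. Diet E also lay above diet A, but the nearest birds were almost tied, at 7.68413 and 7.68408, and diet F overlapped. The means stepped from 7.63 ± 0.05 in A to 7.89 ± 0.20 in E, 8.04 ± 0.37 in F and 8.35 ± 0.25 in H. The step from F to H, 0.31, and that from A to E, 0.26, were each slightly above the pooled SD of 0.25, and that from E to F, 0.15, was not.

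The TRIB1 difference was 0.72 ± 0.18 in H (1.64-fold, adjusted p = 0.521), 0.41 ± 0.18 in F (adjusted p = 0.993) and 0.26 ± 0.18 in E (adjusted p = 0.9997), all against diet A. Unlike those of APOA4 and APOB, the diet H difference was nearly as large without replicates 3 and 4, at 0.58 ± 0.22 (adjusted p = 0.99999). Left-out single birds moved it between 0.66 and 0.84. Among birds with title numbers up to 25 it was 0.57 and above that 0.87. In the same order E minus A was 0.08 and 0.43, and F minus A was 0.14 and 0.68. Birds with title numbers above 25 read 0.28 ± 0.11 higher for TRIB1 with diet in the model (limma adjusted p = 0.102). TRIB1 ranked 20 of 20804 by p in H minus A and 64 in the F test, and diets accounted for 59.7% of its variance.

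Markers of T and NK cells are given beside TRIB1. Of 8 such markers 7 were measured, all above the 20th percentile, and 6 of the 7 read higher in diet H than in A with a median difference of 0.43. Their summed signal in log2 units ran from 9.37 to 9.62 in diet A, 9.56 to 9.64 in E, 9.36 to 10.18 in F and 9.67 to 10.21 in H. Across the 16 livers TRIB1 went with this sum at Pearson's r = 0.87 and Spearman's rho = 0.76. The relation was looked at because CD8A, a T cell coreceptor and 1 of the 7 markers, was the gene most like TRIB1 in these same livers, so it is a description with no test. With CD8A left out of the sum r was 0.85 and rho 0.72. Leaving out diet H replicate 2 and diet F replicate 3, the livers farthest from the median sum, gave r = 0.82. Without diet H replicates 3 and 4 it was 0.85, and within the lower and upper title numbers it was 0.90 and 0.88. The relation was not seen within every diet. In diet A the highest TRIB1, 7.68 in replicate 1, came with the lowest sum, 9.37. In diet E the lowest TRIB1, 7.68 in replicate 1, came with the highest sum, 9.64. Replicate 1 was lowest in both in diets F (7.63 and 9.36) and H (7.97 and 9.67). The share of other genes with as high an r is not given. The part of T and NK cells in the TRIB1 difference was not tested.

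**Figure D4:**
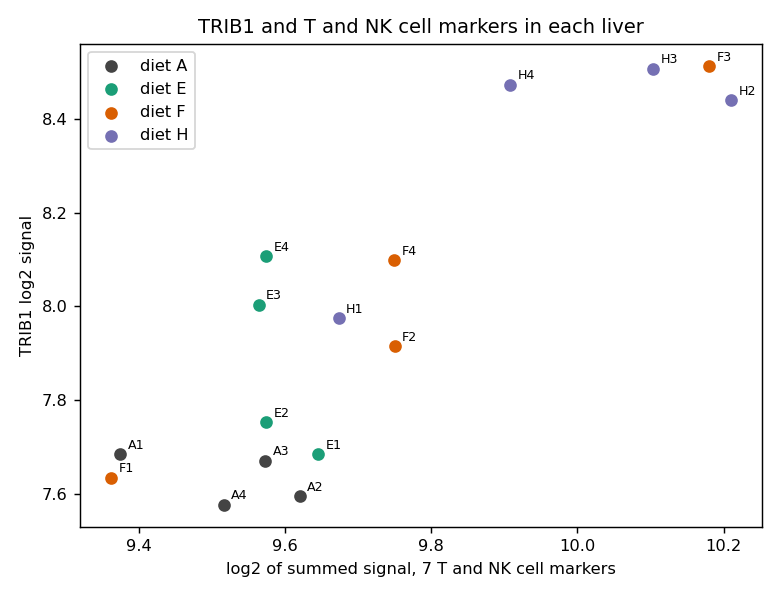
The TRIB1 log2 signal (vertical axis) is plotted against the log2 of the summed signal of 7 T and NK cell markers (horizontal axis) for each of 16 livers, coloured by diet and named by diet letter and replicate. Diet H replicates 2, 3 and 4 and diet F replicate 3 sit at the upper right, and the diet A livers sit at the lower left.

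As a group the members lay on both sides of 0. In diet E 4 of 10 read higher than in A, where 53.8% of all features did, in diet F 8 of 10 against 55.6%, and in diet H 6 of 10 against 56.4%. E was above F in 3 (49.2% of features), H above E in 5 (51.9%) and H above F in 4 (51% of features). The median member difference from diet A was -0.03 in E, 0.04 in F and 0.07 in H, beside 0.02, 0.03 and 0.05 over all features. Without the 2 livers that stood apart the median in H was -0.04 for the members and -0.01 for all features. The median size of a difference, sign aside, was 0.21 for the members and 0.14 for all features in E, 0.10 and 0.14 in F, and 0.34 and 0.23 in H.

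At an unadjusted p under 0.05, a looser rule given as a description only, the members counted were APOA4, APOB and TRIB1 in H minus A, where 8.21% of all features were. CETP was in E minus A (2.03% of features) and in E minus F (1.35%), CETP and TRIB1 in H minus E (2.72%), TRIB1 in F minus A (1.68%) and in the F test (2.13%), and none in H minus F (2.6%). Groups did not overlap for TRIB1 in E and in H against A, where this held for 2.7% and 2.14% of features, and for APOA1 in F against A, with 1.84% of features. For TRIB1 in E against A the nearest birds were almost tied. No member was free of overlap in E against F, H against E or H against F, where 1.15%, 1.03% and 1.14% of features were.

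The 2 livers that stood apart lay on opposite sides for different members. Both read above all other livers for APOA1, APOA4 and SCARB1 and below all others for APOB, that is 4 of 10 members, beside 30.9% of all features with both livers outside the other 14. Relative to the mean of the other 14 livers they were 1.49 higher for APOA4, at the 99.8th percentile of features, and 0.64 higher for APOA5. LIPC was -1.45, at the 0.889th percentile, APOB -0.90 and MTTP -0.60. LIPC, APOB and MTTP span 42378, 35476 and 29003 bp of the genome in the RefSeq table, while APOA1, APOA4 and APOA5 span 1527, 1493 and 1984 bp. Of the other members, SCARB1 (0.56 higher) spans 16198 bp, CETP (0.58 higher) 5651 bp and TRIB1 (0.59 higher) 4873 bp. APOH, at -0.03, spans 5612 bp. The part of span in these values was not tested. Endothelial markers, 5 of 7 measured, summed to 10.20 and 10.34 in these livers and 11.19 to 11.46 in diet A, and pancreas markers, 5 of 8 measured, to 9.25 and 8.20 against 7.67 to 7.96. Red blood cell markers, 5 of 10 measured, summed to 11.10 and 11.24 against 9.75 to 10.14 in diet A, and stellate cell and fibroblast markers, 4 of 7 measured, to 10.83 and 11.19 against 9.76 to 10.35. Livers of diets E and F reached up to 11.06 and 11.31 for red blood cell markers and 11.14 and 11.11 for stellate markers. For pancreas markers they reached 8.30 and 9.91, so high sums in these lists were not particular to the 2 livers. Endothelial sums were 10.91 to 11.43 in E and 10.84 to 11.54 in F. Single markers did not all follow the sums. CDH5 and PECAM1 read below diet A in both livers, while KDR and EMCN did so only in replicate 4. COL1A1 and HBAD read above diet A in both livers. LUM read 6.90 and 6.45 against 6.66 to 7.71 in diet A, and HBE 4.63 and 5.62 against 5.31 to 5.63. AMY2A read 8.08 in replicate 3 and 5.82 in replicate 4, against 5.42 to 6.07 in diet A. The part of these cell types in the members' values was not tested. Over all genes with a span, the deviation of these arrays went with it at Spearman's rho = -0.352 and -0.362, a relation across genes, which are not independent replicates. The other arrays also had such relations, from rho = -0.314 in diet F replicate 4 to 0.330 in diet H replicate 2. After each array was corrected for a trend with span, the H minus A difference was 0.92 ± 0.41 for APOA4, -0.45 ± 0.21 for APOB, -0.13 ± 0.13 for APOA1 and 0.58 ± 0.17 for TRIB1. For LIPC it was -0.44 ± 0.54 and for MTTP -0.24 ± 0.22, against -0.56 and -0.34 before the correction. APOA5 was at 0.10 ± 0.24, against 0.34 before. The limma adjusted p of these corrected differences was 0.476 or more.

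The correlations between members had a median size no larger than those between other genes. Of 45 pairs, 20 had a Pearson r above 0 and 25 below, and the median size of r was 0.44 over 16 livers and 0.29 over 14. Over all pairs of 9530 named genes it was 0.469 and 0.357. By permutation 13 pairs passed an adjusted p of 0.05 over 16 livers and 0 over 14, with 1 by Spearman's rho over 14. The share of other gene pairs that would pass was not counted, so these counts do not set the members apart. Nor do the p-values tell a relation between 2 members from differences between arrays that many genes share. The pair that passed by rho over 14 was APOB and SCARB1. It had r = -0.85 (adjusted permutation p = 0.00045) and rho = -0.92 (adjusted permutation p = 0.00045) over 16 livers. Over 14 it had r = -0.74 (adjusted permutation p = 0.108) and rho = -0.88 (adjusted permutation p = 0.0081). The 2 livers left out are also those farthest from the APOB median. By r with APOB, SCARB1 stood at the 7.63th percentile of all genes, so that many genes had a lower r. Among birds with title numbers up to 25 r was -0.61 and above that -0.96.

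APOB and MTTP, which act in 1 assembly step, went together with r = 0.76 and rho = 0.76 (adjusted permutation p = 0.00742 and 0.0129) over 16 livers and r = 0.66 and rho = 0.67 (adjusted permutation p = 0.142 and 0.17) over 14. MTTP stood at the 78.4th percentile of all genes by r with APOB. APOA1 and APOA4 had r = 0.77 and rho = 0.77 (adjusted permutation p = 0.0069 and 0.0129) over 16, and 0.65 and 0.66 (adjusted permutation p = 0.142 and 0.17) over 14. Without the 2 livers farthest from the APOA1 median it was r = 0.82. Within the lower and upper title numbers r was 0.68 and 0.71 for APOB and MTTP and 0.42 and 0.91 for APOA1 and APOA4. All of these livers share 1 normalization and a first principal component with 43.1% of the variance. APOB followed that component at r = -0.97, SCARB1 at 0.87, APOA1 at 0.84 and APOH at -0.27, where the median size over all features was 0.65.

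**Figure D5:**
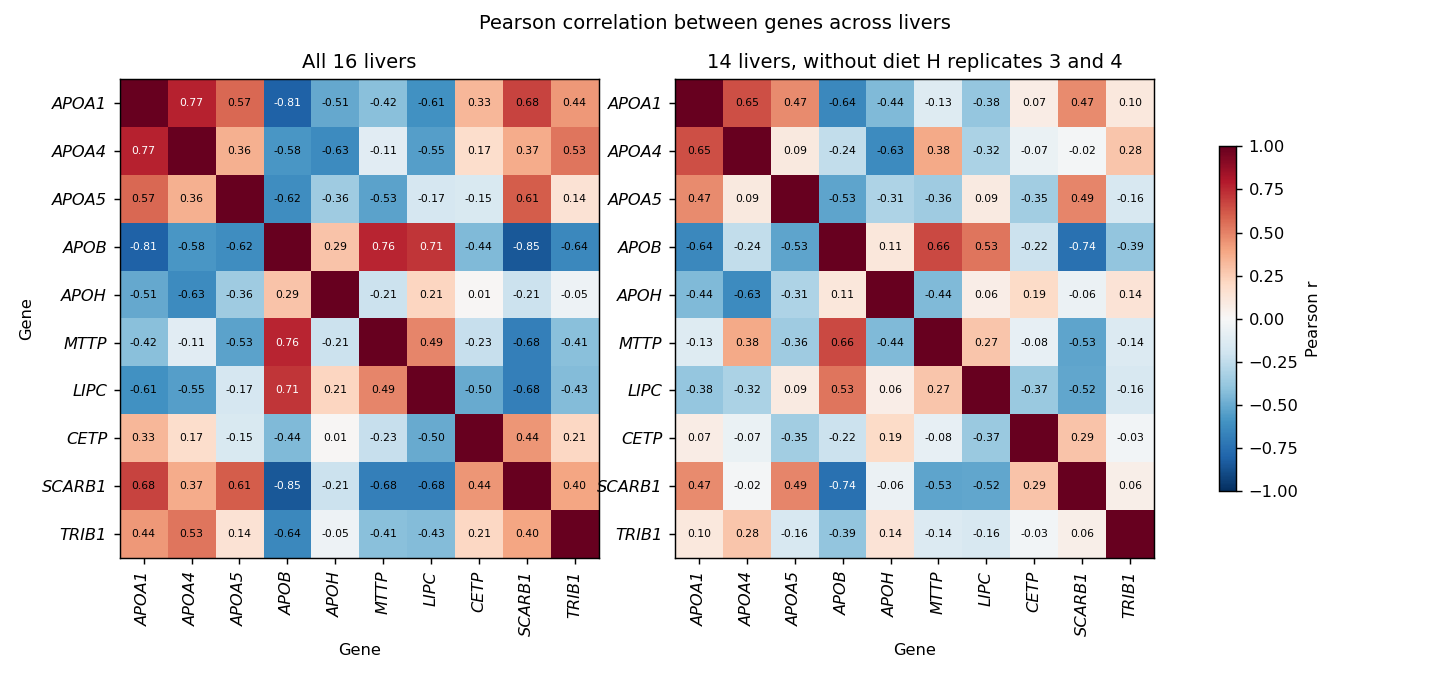
Pearson r between the 10 genes (both axes) across 16 livers (left) and across 14 livers without diet H replicates 3 and 4 (right) is shown by colour from -1 to 1 and as numbers. APOB and SCARB1 are the most opposed pair in both panels, at -0.85 and -0.74, and APOB and MTTP are at 0.76 and 0.66.

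The genes most like each member across the 16 livers were found among 9520 named genes above the 20th percentile. APOB was most like VPS13C (r = 0.98), a lipid transfer protein, and ASCC3 (r = 0.98), a helicase. MTTP was most like ACSL3 (r = 0.93), an acyl-CoA synthetase of lipid droplets and lipoprotein lipids, and NLK (r = 0.92), a kinase. LIPC went with PTGR2 (r = 0.90) and SLC25A13 (r = 0.88), the mitochondrial aspartate and glutamate carrier. SCARB1 went with IDH3B (r = 0.94), a subunit of the citrate cycle's isocitrate dehydrogenase, and KBTBD4 (r = 0.93). APOA5 went with MUSTN1 and PYROXD2 (r = 0.89 each) and CETP with RASGRF1 and SCUBE2 (r = 0.83 each).

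APOA1 had GRIK3 (r = 0.92) and PTRHD1 (r = 0.91) as its nearest genes, and APOA4 had KCNJ4 (r = 0.90) and USP5 (r = 0.89), a deubiquitinase. APOH had the weakest matches, HOMER3 (r = 0.79) and TSNARE1 (r = 0.77). TRIB1 had CD8A (r = 0.87) and CCM2 (r = 0.85). Without the 2 livers that stood apart r with the nearest genes stayed between 0.77 for TRIB1 and CCM2 and 0.97 for APOB and VPS13C. These are the highest of many correlations and are given as descriptions, with no test.

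Other genes of lipoprotein metabolism were listed by role under 78 symbols, of which 50 were measured, and 0 of these 50 passed in E, F or H against A. At an unadjusted p under 0.05 there were 3, 1 and 5, which is 6%, 2% and 10%, beside 2.03%, 1.68% and 8.21% of all features. Measured were 5 of 12 structural apolipoproteins and relatives, of which 3 read higher and 2 lower in H than in A (median difference 0.12, and -0.001 without the 2 livers that stood apart). Of 11 genes of assembly and secretion 7 were measured, 3 higher and 4 lower (median -0.17, and -0.09 without the 2 livers). Of the apolipoproteins, APOOL, of the mitochondrial inner membrane, differed by -0.67 ± 0.37 in H minus A, and -0.03 without the 2 livers. APOV1, a yolk lipoprotein of laying hens, differed by 0.77 ± 0.43 through diet H replicate 1 at 6.81, the other H livers reading 4.16 to 5.11. In the assembly list SEC24D and MIA3, which serve export from the endoplasmic reticulum, differed by -0.41 ± 0.19 and -0.40 ± 0.20, each -0.09 without the 2 livers.

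Of 10 plasma lipase and lipid transfer genes 6 were measured, with 4 higher and 2 lower in H than in A (median 0.12, and -0.13 without the 2 livers). LPL, the lipoprotein lipase, averaged 8.83 ± 0.48 in diet A, 8.20 ± 0.16 in E, 8.46 ± 0.14 in F and 8.18 ± 0.65 in H. Its H minus A difference was -0.65 ± 0.28, and -0.17 without the 2 livers. LMF1, a factor of lipase maturation, differed by 0.36 ± 0.21 in H minus A and by -0.02 without the 2 livers. Receptors and cholesterol exporters, 16 of 20 measured, had 5 higher and 11 lower (median -0.12), where the median over all features was 0.05. Without the 2 livers these medians were 0.09 and -0.01. STAB2, a scavenger receptor of sinusoidal endothelium, averaged 8.85 ± 0.05 in A and 8.54 ± 0.12 in H. Its 4 diet H livers, at 8.39 to 8.65, all lay below the diet A livers at 8.81 to 8.92, as groups without overlap did in 2.14% of all features. The STAB2 difference was -0.31 ± 0.13, and -0.21 without the 2 livers. NPC1, which exports cholesterol from lysosomes, averaged 9.54 ± 0.22 in F and 8.998 ± 0.26 in H. Its H minus A difference was -0.26 ± 0.16, and -0.06 without the 2 livers.

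Partners and relatives of TRIB1, with 4 of 9 listed symbols measured, had 3 higher and 1 lower in H than in A (median 0.15, and 0.02 without the 2 livers). Regulators of apolipoprotein genes, 12 of 16 measured, had 5 higher and 7 lower (median -0.15, and 0.04 without the 2 livers). In the first list CEBPB, a C/EBP factor, and SAP18, a corepressor subunit, differed by 0.24 ± 0.21 and 0.33 ± 0.19 in H minus A, with -0.03 and -0.02 without the 2 livers. In the second NR0B2, the bile acid-induced corepressor SHP, averaged 8.17 ± 0.34 in A, 8.90 ± 0.14 in E, 8.79 ± 0.48 in F and 8.99 ± 0.60 in H. Its H minus A difference was 0.82 ± 0.28, and 0.31 without the 2 livers. NR2F2, a nuclear receptor that acts on apolipoprotein promoters, differed by -0.29 ± 0.19 in H minus A and 0.02 without the 2 livers. Each of these 12 genes, the leading 2 of each list by p, stood at adjusted p = 0.984 in the F test.

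The titles number the birds, and each diet has 2 birds up to 25 and 2 above, which makes 8 against 8. The labels do not say what the numbers stand for. SCARB1 averaged 8.75 below and 9.17 above, with all 8 upper birds over the median of the lower ones, a difference of 0.43 ± 0.12 with diet in the model. LIPC averaged 7.58 and 6.55, with 6 of the 8 upper birds under the lowest of the lower block, 6.82, and the other two, diet A and E replicates 4, at 8.06 and 7.82. APOB averaged 12.77 and 12.29. Their limma adjusted p was 0.065, 0.0791 and 0.0725, with 0 of 20804 features (0%) called and 31.6% at an unadjusted p under 0.05. APOA5, APOB, LIPC, SCARB1 and TRIB1 were the 5 members among the latter. Both livers that stood apart are in the upper block. Without them its mean was 9.08 for SCARB1, 6.80 for LIPC and 12.48 for APOB.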

How the data were processed

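Liver RNA of 16 birds was measured on 1-colour Affymetrix arrays, per the labels' protocols. The authors deposited log2 values, judged by their range. The submitters' processing notes name GCOS 1.1.1, while background correction, summarization and normalization were not given in the sources used here. One limma 3.58.1 (R 4.3.3) model with a mean per diet was fitted to all 20804 features and all 16 arrays, with 12 residual degrees of freedom, two-sided tests and Benjamini-Hochberg adjustment over all features at 0.05. The model was also run on simulated data with independent noise per feature. Those data lack the correlation between features seen here, so they do not show how the model behaves on these arrays. Birds are the replicates, since the design text counts chickens per diet, and replicate numbers follow accession order and only name birds. The number of arrays limits the precision. Gene symbols come from the platform annotation, and names, neighbours and genomic spans from the RefSeq table of GRCg7b. No coordinates are printed, since the array's own build is not stated.

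The members, gene lists and the rule for named genes were chosen with earlier results of these data known. All members are named, with differences from diet A or for the pair of diets with the smallest p, and further the 2 leading genes of each pathway list by F test and the 2 genes most like each member. Summed marker signals are log2 of the sum of linear signals. Correlations used 100000 permutations, two-sided, adjusted over 45 pairs; these p-values and the comparison by title number were added after the data were seen. Alternatives were quantile normalization, no dim features, 2 diets per fit, array weights, a title number block, no diet H replicates 3 and 4, a genomic span trend, the mean of a gene's features and each bird left out.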

Additional observations from a re-analysis of the deposited data

Results flagged for a closer look

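Within a diet, 3 of 40 sets of 4 birds held a liver far from the rest by Dixon's test, whose limit about 1 in 20 sets passes by chance. CETP in diet A replicate 4 was 8.02, where the other birds of that diet read 8.55 to 8.60. SCARB1 in diet E replicate 2 was 8.61, against 9.005 to 9.03 in the other birds. TRIB1 in diet H replicate 1 was 7.97, against 8.44 to 8.51 in the other birds, and without it the TRIB1 difference of H minus A was 0.84.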

How the results depend on the processing

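The count of called features stayed at 0 in each comparison and alternative but one: with array weights 1 feature with no gene symbol here, 15380829, was called in E minus A. No member was called in any alternative, with a lowest adjusted p of 0.11. Of the member differences, 456 values kept their sign and 10 turned it. Many of the 456 could not turn, so this count is not a measure of stability. A bird left out from outside the 2 diets compared does not change a difference. Nor do leaving out dim features, fitting 2 diets at a time or the title number block. Without diet H replicates 3 and 4 the H minus A difference was -0.047 for APOA1 and -0.10 for APOA5, H minus F was 0.24 for LIPC and H minus E -0.25 for SCARB1. APOA5 in F minus A was -0.0058 with array weights, -0.079 with the span trend taken out and -0.18 to 0.24 with single birds left out, and APOA1 in H minus A was -0.13 with that trend out. The median over members in H minus A was -0.043 without those 2 livers, -0.11 with the span trend out and -0.014 (without diet H replicate 3) to 0.18 (without diet H replicate 2) over single omissions. With the span trend out it was -0.10 in H minus E and -0.12 in H minus F. Over single omissions it ran from -0.068 (without diet A replicate 2) to 0.060 (without diet A replicate 4) in E minus A and -0.078 (without diet H replicate 4) to 0.088 (without diet H replicate 2) in H minus E. The cause was not tested. No paired analysis was possible because the replicate numbers only name birds. The files give no background signal per feature, and 4 birds per diet limit the precision.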
